A study of Mus musculus with 12 samples.

Results

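The Th17 effector cytokine genes described here are Il17a, Il17f, Il21, Il22 and Ccl20. These 5 genes were chosen by symbol from the 29522 genes of each library, and all 5 were found under their Ensembl identifiers. T helper 17 (Th17) cells are CD4+ T cells that defend mucosal surfaces and take part in autoimmune inflammation, mostly through the proteins they secrete. Interleukin-6 and TGF-beta start the programme through the transcription factor STAT3 and nuclear receptors. Interleukin-17A and interleukin-17F form dimers that make epithelial and stromal cells recruit neutrophils. Interleukin-21 acts back on the T cells and on B cells, interleukin-22 acts on epithelial cells and its production depends on the aryl hydrocarbon receptor (AhR), and CCL20 is the chemokine that attracts cells carrying CCR6.

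RNA was sequenced from 12 cultures of naive CD4+ T cells. The cells came from spleens of C57BL/6J mice of wild-type genotype, and all were activated through CD3 and CD28 in a Th17 medium. There were 3 biological replicates in each of 4 groups: vehicle, ILA at 200 uM, GSK805 at 0.5 uM, and GSK805+ILA, which had both compounds at these doses. ILA is indole-3-lactic acid, a bacterial catabolite of tryptophan, and GSK805 is an inhibitor of a nuclear receptor that Th17 cells use. The labels give neither the age of the mice nor how many there were, nor how long the compounds were present, so p-values measure the spread between these cultures.

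The libraries held 17.81 to 23.44 M reads, recovered from the authors' FPKM values (fragments or reads scaled by gene length and by the size of the library). The labelled cell type was seen in its markers: in the vehicle libraries Cd4 stood at 41.1 to 43.4 FPKM and the Th17 marker Ccr6 at 4.61 to 5.02 FPKM. Th17 markers moved with the cytokine genes: Ccr6, Il23r and Il1r1 were lower than with vehicle under all 3 treatments, and Rora with ILA and with both compounds. Mean Il23r was 8.17 FPKM with vehicle, 1.85 with ILA, 0.751 with GSK805 and 0.295 with both, and mean Il1r1 was 18.8, 7.39, 10.6 and 5.33 FPKM in the same order. The 5 CD4 T cell markers Cd4, Cd3d, Cd3e, Cd3g and Trac summed to 309 to 337 FPKM with vehicle, 328 to 351 with GSK805, 596 to 634 with ILA and 540 to 587 with GSK805+ILA. Gamma delta T cells and innate lymphoid cells can also make interleukin-17 and interleukin-22. The 6 measured gamma delta T markers summed to at most 2.76 FPKM, with 1.67 to 2.76 under vehicle and 0.603 to 0.994 under ILA. Of the 5 measured NK and innate lymphoid markers, Klrb1c reached 0.12 FPKM and Eomes 0.55 FPKM in the highest library. The others, Klrc1, Kit and Il7r, brought the sum to 69.7 to 110 FPKM, and which cells their transcripts came from was not tested. Of these, Klrc1 moved with the cytokine genes, at 52.6 ± 4.42 FPKM with vehicle, 16.9 ± 1.62 with ILA, 23.2 ± 3.29 with GSK805 and 9.65 ± 0.829 with both (n = 3), and was called lower against vehicle each time. Kit and Il7r were instead 2.07-fold and 1.62-fold higher with ILA. The 2 CD8 T markers summed to 3.77 to 5.23 FPKM with vehicle and 1.09 to 1.51 with ILA, nearly all of it Cd8b1. The 3 measured B cell markers summed to at most 2.81 FPKM, and the 6 myeloid markers to 7.04 to 8.36 with vehicle and 10.8 to 12.4 with ILA, mostly Cd68 and Csf1r. The part of these shifts in the results below was not tested. In such bulk RNA fewer producing cells and less RNA per cell cannot be told apart.

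In GENCODE vM21 on GRCm38, the mm10 build that the submitters used, Il17a (ENSMUSG00000025929) occupies chr1:20730905-20734496 on the plus strand. Il17f (ENSMUSG00000041872) occupies chr1:20777146-20790617 on the minus strand, 42650 bp further on, with no protein-coding gene between them. Ccl20 (ENSMUSG00000026166) lies on the same chromosome, 62.3 Mb away, at chr1:83116766-83119167 on the plus strand. Il21 (ENSMUSG00000027718) is at chr3:37222759-37232636 on the minus strand and overlaps Gm12534 on the plus strand, so without known strand handling reads of the pair cannot be told apart. Il22 (ENSMUSG00000074695) is at chr10:118204942-118210047 on the plus strand. Its near copy Iltifb, whose transcript is 97.4% identical over 1110 aligned bp, was listed at 0 to 0.169 FPKM, and the authors' way of dividing reads between the copies was not given in the sources used here, so the Il22 level is uncertain.

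GSK805 targets a nuclear receptor, so for the 3 genes whose upstream window holds the letters such receptors bind, the 220 bases before their RefSeq transcription starts (GRCm38.p6) are shown, 5′ to 3′ on the strand of the gene. Capitals mark AGGTCA or its reverse complement TGACCT, core letters that nuclear receptors bind, and CACGC, the reverse complement of the AhR core GCGTG. The windows are chr1:20730685-20730904 for Il17a, chr1:20784271-20784490 (minus strand) for Il17f and chr1:83116546-83116765 for Ccl20.
Il17a: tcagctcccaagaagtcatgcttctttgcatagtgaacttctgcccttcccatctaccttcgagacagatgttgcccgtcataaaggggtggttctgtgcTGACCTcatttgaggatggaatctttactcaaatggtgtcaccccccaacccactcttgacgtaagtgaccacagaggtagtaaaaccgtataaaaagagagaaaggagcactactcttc
Il17f: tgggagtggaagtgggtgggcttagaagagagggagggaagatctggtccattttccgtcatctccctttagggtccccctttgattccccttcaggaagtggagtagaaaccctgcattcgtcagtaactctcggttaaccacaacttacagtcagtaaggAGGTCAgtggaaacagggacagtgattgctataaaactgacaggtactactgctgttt
Ccl20: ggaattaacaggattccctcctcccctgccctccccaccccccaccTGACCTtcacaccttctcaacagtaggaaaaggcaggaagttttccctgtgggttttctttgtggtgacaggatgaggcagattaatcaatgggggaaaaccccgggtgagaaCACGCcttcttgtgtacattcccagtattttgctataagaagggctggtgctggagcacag
AGGTCA on either strand was found in these 3 windows, first base at -120 in Il17a, -58 in Il17f and -174 in Ccl20, and not in those of Il21 or Il22. Of 32851 RefSeq windows of the same length, 12.4% held it. GCGTG on either strand was found at -61 in Ccl20 and at -142 in Il21, against 26.1% of all windows. The letters TGANTCA of AP-1 sites and TTCNNNGAA of STAT sites were in none of the 5 windows, and in 5.96% and 6.05% of all windows. Positions count from the RefSeq starts, which are not always the GENCODE limits given above. The Il17f window lies inside the GENCODE gene. The Il22 window, chr10:118204744-118204963, reaches past the GENCODE start at 118204942. These matches describe letters in a short window and show no binding. Il21 and Il22, without AGGTCA in their windows, were also lower with GSK805, at 46.7% and 13.9% of their vehicle means. A link between the letters and the response to GSK805 was not tested.

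In Th17 cells given vehicle the IL-17 genes dominated the set by far. Il17a stood at 756 ± 107 FPKM (SD, n = 3), rank 37 of all 29522 genes by mean level, and Il17f at 624 ± 51.9 FPKM, rank 49. Il21 followed at 71.2 ± 4.73 FPKM (rank 645), Ccl20 at 25 ± 3.29 FPKM (rank 2429) and Il22 at 2.97 ± 1.58 FPKM (rank 9364). The 5 genes together took 0.408% to 0.494% of all FPKM, and Il17a and Il17f made up 93.1% to 93.6% of that sum. The 5 genes' share of all FPKM was 0.144% to 0.159% with ILA, 0.125% to 0.142% with GSK805 and 0.0585% to 0.0675% with both compounds, so no group overlapped vehicle, and Il17a and Il17f still supplied 89% to 91.6% of it.

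**Figure D1:**
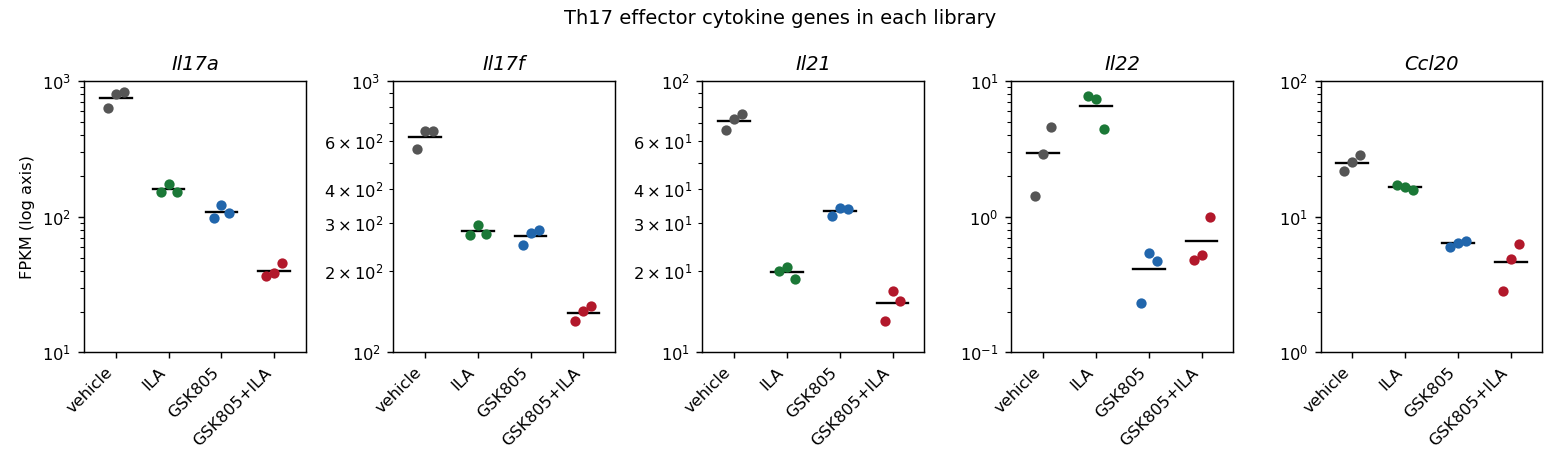
FPKM of each gene in each of the 12 libraries on a log axis whose range differs between panels; points are the 3 replicates of a group and the bar is their mean. Il17a falls from 634 to 832 FPKM with vehicle to 36.4 to 45.5 FPKM with GSK805+ILA, while Il22 is higher with ILA (4.44 to 7.71 FPKM) than with vehicle in mean but not in every library.

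Each of the 6 pairs of groups was compared by limma on log2(FPKM + 1) over the 13511 genes whose mean reached 1 FPKM in some group, with Benjamini-Hochberg adjustment over all of them and calls below 0.05. All 5 genes passed that filter, Il22 only through the vehicle and ILA groups. Fold values are ratios of FPKM + 1, and the 3 comparisons with vehicle share its libraries. Against vehicle, ILA lowered 4 of the 5 genes and raised Il22. Over all genes 57.9% were called, 24% lower and 33.9% higher, and 62.8% had groups that did not overlap. GSK805 lowered all 5 genes, in a comparison where 22.8% of all genes were called, 7.08% lower and 15.7% higher, and 38.7% did not overlap. GSK805+ILA lowered all 5 as well, with 52.1% of all genes called, 20.3% lower and 31.8% higher, and 59.2% without overlap. ILA on top of GSK805 lowered 3 of the 5, with 39.5% of all genes called, 17.5% lower and 22% higher, and 52.1% without overlap (28.2% higher, 23.9% lower). GSK805 on top of ILA lowered all 5, with 18.6% of all genes called, 8.64% lower and 9.92% higher, and 37.2% without overlap. Between the single compounds 3 of the 5 were higher with ILA and 1 lower, with 52.5% of all genes called, 27.1% higher and 25.4% lower, and 60.3% without overlap (31.2% higher, 29.2% lower). The balance of higher and lower calls over all genes depended on the scaling. With median centring the higher share of all calls went from 58.6% to 40.9% for ILA, from 68.9% to 40.3% for GSK805, from 61.1% to 40.2% for both compounds against vehicle, and from 55.7% to 41.6% for ILA on top of GSK805. With quantile normalization these shares were 46.3%, 55.9%, 47.8% and 46.8%. The median log2 difference of the 5 genes was -1.16 with ILA, -1.41 with GSK805 and -2.16 with both, beside 0.064, 0.054 and 0.065 over all genes tested.

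Il17a encodes interleukin-17A, the cytokine that gives these cells their name. Its vehicle libraries held 634, 803 and 832 FPKM, the ILA libraries 153, 173 and 153, the GSK805 libraries 97.7, 122 and 107, and the GSK805+ILA libraries 36.4, 38.5 and 45.5. No 2 groups overlapped, and the order vehicle, ILA, GSK805, GSK805+ILA had a called difference at every step. ILA left 21.1% of the vehicle mean (20.2% to 22.8% over its libraries), GSK805 14.4% (12.9% to 16.1%) and both compounds 5.31% (4.82% to 6.01%). The step from ILA to GSK805 was the smallest: Il17a was 1.46-fold higher with ILA (log2 difference 0.55, SE 0.12, limma adjusted p = 0.00258). Adding ILA to GSK805 lowered it 2.67-fold (95% interval 2.23 to 3.2, limma adjusted p = 6.07e-06), and adding GSK805 to ILA lowered it 3.91-fold (3.26 to 4.69, limma adjusted p = 1.31e-05).

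Il17f encodes interleukin-17F, the partner of interleukin-17A in heterodimers. It stood at 564, 652 and 656 FPKM with vehicle, at 271, 294 and 272 with ILA, at 248, 276 and 282 with GSK805, and at 131, 142 and 148 with both. The ILA and GSK805 libraries overlapped, and every other pair of groups was separate. ILA lowered Il17f 2.23-fold (95% interval 2 to 2.48) and GSK805 2.32-fold (2.08 to 2.58). Between the single compounds the ratio was 1.04, with a 95% interval of 0.933 to 1.16 (limma adjusted p = 0.538). The second compound lowered the gene again by nearly as much, 1.91-fold for ILA on top of GSK805 (1.71 to 2.12) and 1.98-fold for GSK805 on top of ILA (1.78 to 2.21), with limma adjusted p = 2.30e-06 and 1.99e-05. With both, Il17f kept 22.5% of its vehicle mean (21% to 23.7%), and at 140 FPKM it was the highest of the 5 genes in that group.

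The balance of the pair differed between the groups as well. The Il17a to Il17f ratio of FPKM was 1.12, 1.23 and 1.27 in the vehicle libraries, 0.562, 0.587 and 0.562 with ILA, 0.393, 0.442 and 0.379 with GSK805, and 0.278, 0.271 and 0.307 with both. Il17a was the higher gene in all 3 vehicle libraries and the lower gene in all 9 treated ones. Against vehicle, the ratio was 2.11-fold lower with ILA, 2.99-fold lower with GSK805 and 4.23-fold lower with both, and no 2 groups overlapped. For each of the 6 pairs of groups the exact permutation test, two-sided, gave p = 0.1, the smallest that 3 against 3 libraries allow, also after adjustment over the 6 comparisons, so none can pass 0.05.

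**Figure D2:**
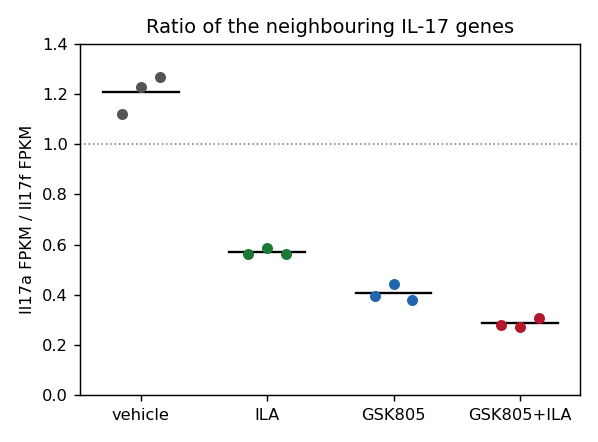
Ratio of Il17a FPKM to Il17f FPKM in each library; points are the 3 replicates of each group, bars are group means and the dotted line marks equal levels. The mean ratio is 1.21 with vehicle, 0.571 with ILA, 0.405 with GSK805 and 0.285 with GSK805+ILA.

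Il21, whose product sustains Th17 cells and helps B cells, ranked the single compounds the other way round. The vehicle libraries held 66, 72.2 and 75.3 FPKM, ILA 20, 20.6 and 18.7, GSK805 31.8, 34.2 and 33.8, and both compounds 13.1, 16.9 and 15.5. All 4 groups were separate, with ILA below GSK805. ILA lowered Il21 3.47-fold (95% interval 3.08 to 3.92) and GSK805 2.1-fold (1.86 to 2.37). Il21 was 1.65-fold lower with ILA than with GSK805 (1.46 to 1.86, limma adjusted p = 1.68e-05), whereas Il17a, Il22 and Ccl20 were higher with ILA than with GSK805. Adding GSK805 to ILA lowered Il21 by only 1.29-fold (1.14 to 1.45, limma adjusted p = 0.00923), and adding ILA to GSK805 lowered it 2.13-fold (1.88 to 2.4, limma adjusted p = 1.81e-06).

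Il22 was the exception among the 5: it was low throughout and the only gene that ILA raised. Its vehicle libraries held 1.42, 2.9 and 4.59 FPKM, which correspond to 35, 66 and 105 reads. The ILA libraries held 7.71, 7.38 and 4.44 FPKM, or 185, 154 and 88 reads. The lowest ILA library lay just under the highest vehicle library, and the mean was 219% of vehicle (150% to 260%). The rise was 1.96-fold (log2 difference 0.97, SE 0.28, limma adjusted p = 0.0113), with a 95% interval of 1.28 to 3. Over the alternatives its adjusted p ran from 0.000233 to 0.0489. With GSK805 the libraries held 0.231, 0.539 and 0.472 FPKM, and with both compounds 0.484, 0.522 and 0.997, which are 6 to 13 and 10 to 26 reads. Both groups lay under every vehicle and every ILA library. GSK805 lowered Il22 2.66-fold and GSK805+ILA 2.27-fold against vehicle (limma adjusted p = 0.00459 and 0.00422), and GSK805 lowered it 4.45-fold in the presence of ILA (2.91 to 6.81, limma adjusted p = 5.76e-04). The pseudocount of 1 exceeds these treated levels: with voom on the recovered reads the log2 difference for GSK805 was -2.7 instead of -1.41, for both compounds -1.99 instead of -1.18, and for GSK805 on top of ILA -3.28 instead of -2.15. ILA on top of GSK805 gave a ratio of 1.17 with a 95% interval of 0.767 to 1.8 (limma adjusted p = 0.549). Its log2 difference was 0.23, and 0.57 with a pseudocount of 0.1 and 0.71 with voom. Neither of these alternatives passed (limma adjusted p = 0.315 and 0.416, and 0.315 to 0.847 over all alternatives). The interval is for FPKM + 1, so the fold in FPKM may lie outside it. At 6 to 26 reads a library the data cannot settle whether ILA changed Il22 in the presence of GSK805.

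Ccl20, the chemokine gene, had the log2 difference of smallest size among the 5 genes between ILA and vehicle. It stood at 21.7, 25.1 and 28.3 FPKM with vehicle, 17.2, 16.7 and 15.8 with ILA, 6.01, 6.42 and 6.63 with GSK805, and 2.83, 4.92 and 6.26 with both. The vehicle, ILA and GSK805 libraries did not overlap, and those with both compounds reached into the GSK805 range. ILA lowered it 1.48-fold (95% interval 1.11 to 1.97, limma adjusted p = 0.0234), a call that was lost without vehicle replicate 2 or 3, without ILA replicate 3 and with no filter on low values. The adjusted p over the alternatives ran from 3.83e-05 to 0.0809. GSK805 lowered it 3.53-fold (2.65 to 4.69, limma adjusted p = 1.16e-04) and, in the presence of ILA, 3.2-fold (2.4 to 4.25, limma adjusted p = 2.67e-04). ILA on top of GSK805 gave a ratio of 0.746 (0.561 to 0.993) that did not pass (limma adjusted p = 0.0966). Without GSK805+ILA replicate 3, the highest of its group, that difference passed (limma adjusted p = 0.0125, log2 difference -0.62; alternatives up to 0.277), and without GSK805+ILA replicate 1 the log2 difference was -0.16.

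**Figure D3:**
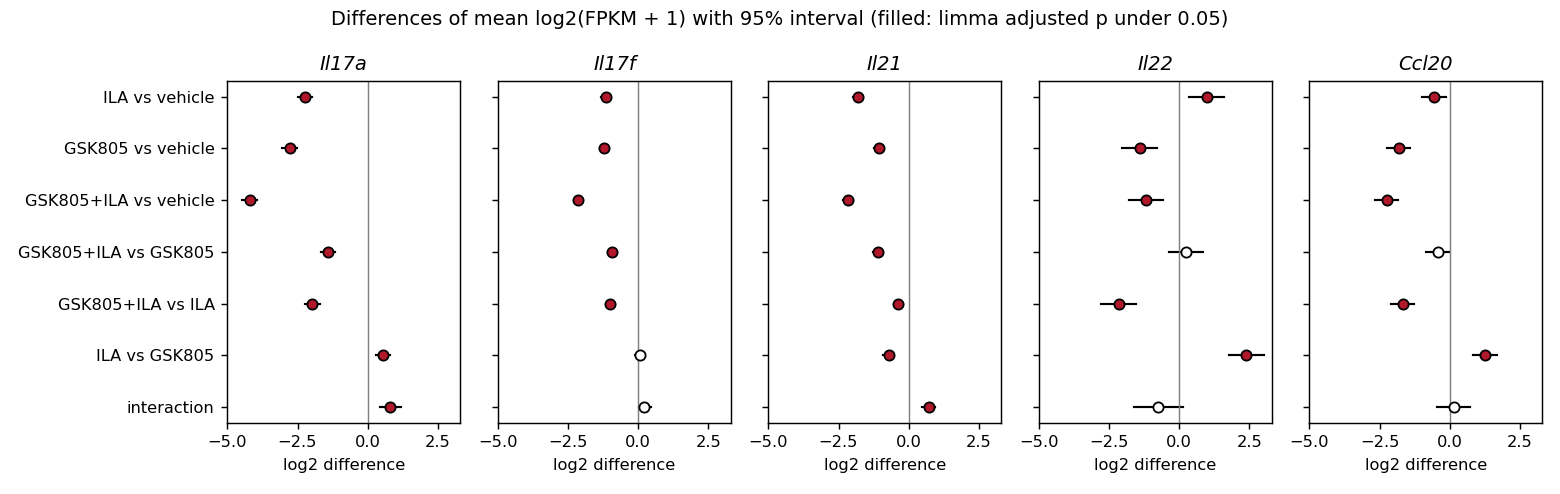
Differences of mean log2(FPKM + 1) for each gene in the 6 pairwise comparisons and the interaction; points are estimates, lines are 95% intervals from the limma fit, and filled points have an adjusted p under 0.05. Il22 with ILA against vehicle lies at 0.97, while the other 4 genes lie between -2.23 and -0.56 in that comparison.

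Whether ILA acted differently with and without GSK805 was tested as the interaction of the compounds, in which 13.8% of all genes were called, 5.15% upward and 8.7% downward. The upward share of these calls was 37.2%, and 63.2% with median centring. The interaction passed, upward, for 2 of the 5 genes. Il17a fell less under ILA when GSK805 was present: the log2 effect was -1.42 with GSK805 and -2.23 without it, a difference of 0.81 (95% interval 0.44 to 1.18, limma adjusted p = 0.0117). Il21 did likewise, with -1.09 against -1.8 and a difference of 0.71 (0.46 to 0.95, limma adjusted p = 0.00328). Written as shares of the vehicle mean, the product of the single effects is 3.03% for Il17a, beside 5.31% measured with both compounds, and 13% for Il21, beside 21.3%. For Il17f the product was 19.3% beside 22.5% measured (difference 0.22, 0.01 to 0.44, limma adjusted p = 0.159), and for Ccl20 16.7% beside 18.7% (difference 0.14, -0.44 to 0.72, limma adjusted p = 0.761). Il22 had a product of 30.6% beside 22.5% measured (difference -0.74, -1.61 to 0.13, limma adjusted p = 0.242). The shares are of FPKM and the differences of log2(FPKM + 1). For Il22, under 1 FPKM with GSK805, the sizes of these measures are therefore not alike. Over the alternatives the Il22 difference ran from -1.027 to -0.424 (limma adjusted p = 0.0865 to 0.64). The intervals of these last 3 genes leave room for sizeable departures from a product in Il22 and Ccl20.

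**Figure D4:**
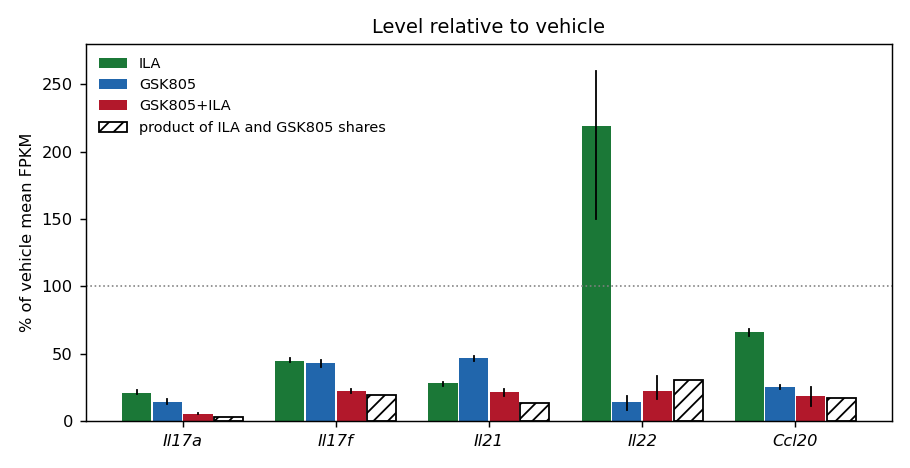
Mean FPKM of each gene as a percentage of its vehicle mean (dotted line at 100), for ILA, GSK805 and GSK805+ILA; vertical lines span the lowest and highest library, and hatched bars are the product of the ILA and GSK805 shares. For Il17a the measured 5.31% exceeds the product of 3.03%, and for Il21 21.3% exceeds 13%.

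Of the wider IL-17 family, only Il17a and Il17f passed the filter; Il17b, Il17c, Il17d and Il25 did not and stood at no more than 1.27 FPKM in any library. Of 8 listed receptor genes for the products of the 5 genes, 7 were analysed here and 5 of these were tested. With ILA 2 of the 5 were higher and 1 lower against vehicle, with GSK805 3 and 1, and with both compounds 4 and 1, beside 57.9%, 22.8% and 52.1% of all genes called in either direction. Ccr6, the receptor for CCL20, was the gene that fell in all of them: 4.8 ± 0.205 FPKM with vehicle, 1.88 ± 0.31 with ILA, 0.983 ± 0.228 with GSK805 and 0.181 ± 0.0977 with both (n = 3). Ligand and receptor of this chemokine pair thus both fell under each treatment. The Ccl20 call with ILA, however, was lost under some alternatives (limma adjusted p up to 0.0809). Il17ra, a shared receptor chain for interleukin-17A and interleukin-17F, was 1.17-fold, 1.25-fold and 1.28-fold higher with ILA, GSK805 and both (limma adjusted p = 6.31e-04, 3.65e-04 and 2.70e-05), and its partner Il17rc reached no more than 0.468 FPKM and was not tested. Il21r, the receptor for interleukin-21, was 1.31-fold higher with GSK805 and 1.23-fold higher with both (limma adjusted p = 6.80e-04 and 8.84e-04), and with ILA its ratio was 1.01 (limma adjusted p = 0.897). Il2rg, the common gamma chain that pairs with it, was 1.5-fold higher with ILA and 1.36-fold higher with both. Il10rb, a chain of the interleukin-22 receptor, was 1.36-fold and 1.32-fold higher with GSK805 and with both, and Il22ra2, the soluble interleukin-22 antagonist, reached no more than 0.0737 FPKM.

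Among 18 genes that feed into transcription of these cytokines, all tested, ILA raised 10 and lowered 7, GSK805 raised 6 and lowered 5, and both compounds raised 7 and lowered 9, where 57.9%, 22.8% and 52.1% of all genes were called. The median log2 difference of these 18 was 0.25, 0.03 and -0.18. Rora, a nuclear receptor gene of Th17 cells, was 1.77-fold lower with ILA, and Irf4, a partner of BATF at Th17 genes, 1.74-fold lower. Neither passed with GSK805 (limma adjusted p = 0.249 and 0.357), and Batf itself passed in no comparison. Maf, whose product c-Maf represses Il22 in Th17 cells, was 3.24-fold higher with ILA, at 36.1 ± 1.88 FPKM against 10.5 ± 0.7 FPKM, alongside the rise of Il22. Ahr was 1.41-fold, 1.21-fold and 1.27-fold higher with ILA, GSK805 and both (limma adjusted p = 6.78e-04, 0.0483 and 0.00718). Among the receptors for cytokines that drive Th17 cells, Il23r was 3.21-fold, 5.23-fold and 7.05-fold lower with ILA, GSK805 and both, and Il1r1 2.37-fold, 1.71-fold and 3.14-fold lower. For Il23r these ratios of FPKM + 1 understate the fall in FPKM. Its mean was 8.17 FPKM with vehicle, 1.85 with ILA, 0.751 with GSK805 and 0.295 with both. Il6ra, in contrast, was 2.02-fold, 1.43-fold and 2.16-fold higher. Tgfbr2, a TGF-beta receptor chain, was 1.77-fold, 1.42-fold and 1.74-fold higher. The other listed TGF-beta receptor chain, Tgfbr1, was 1.55-fold lower with ILA and 1.26-fold lower with both (limma adjusted p = 5.81e-06 and 9.98e-04). With GSK805 Tgfbr1 was 1.2-fold higher (limma adjusted p = 0.0121). Il6st, which pairs with Il6ra, was 1.37-fold higher with ILA and 1.5-fold higher with both, and Stat3 1.31-fold higher with ILA and 1.13-fold higher with both.

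Of 18 other T helper cytokine genes 12 were tested. ILA lowered 8 and raised 3 (median log2 difference -0.49), GSK805 lowered 4 and raised 3 (-0.1), and both lowered 7 and raised 2 (-0.84), beside the same 57.9%, 22.8% and 52.1% called over all genes. Csf2, which encodes the inflammatory cytokine GM-CSF, was 2.13-fold, 2.49-fold and 2.76-fold lower with ILA, GSK805 and both (limma adjusted p = 0.0053, 0.00627 and 0.00102). Ifng, the Th1 cytokine, was 4.11-fold, 1.81-fold and 3.67-fold lower. Il2, the T cell growth factor, was 4.43-fold lower with ILA and 2.55-fold lower with both, and with GSK805 its ratio was 0.852 (limma adjusted p = 0.214). Tnf was 1.33-fold lower with ILA and 1.19-fold lower with both, and did not pass with GSK805 (limma adjusted p = 0.835). Il10 was 1.41-fold lower with ILA alone (limma adjusted p = 0.0138), and Il9 passed against vehicle in none of the 3 comparisons. The raised genes were Ltb, Tgfb1 and Lta. Ltb was 2.82-fold, 1.23-fold and 2.29-fold higher with ILA, GSK805 and both, and Tgfb1 1.28-fold, 1.13-fold and 1.31-fold higher. Lta was 1.22-fold and 1.14-fold higher with ILA and GSK805, and did not pass with both (limma adjusted p = 0.0697).

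The nearest protein-coding neighbours of the 5 genes did not share one pattern. They were picked after the values of the 5 genes were seen. Il2 is the neighbour of Il21, 96800 bp away, and like Il21 it was lower with ILA than with GSK805. It stood at 138 ± 22.1 FPKM against 523 ± 59.1 FPKM (n = 3, 3.77-fold, limma adjusted p = 4.73e-07). Unlike Il21, it did not pass with GSK805 against vehicle (ratio 0.852, limma adjusted p = 0.214). GSK805 on top of ILA raised Il2 1.74-fold (limma adjusted p = 0.0018), whereas it lowered Il21. Mcm3, a replication gene 12351 bp from Il17f, was 1.18-fold lower with ILA and 1.64-fold lower with both compounds (limma adjusted p = 0.0181 and 1.21e-05). Daw1, 40585 bp from Ccl20, was low, at 1.36 ± 0.161 FPKM with vehicle, 1.73 ± 0.298 with ILA, 0.182 ± 0.147 with GSK805 and 0.678 ± 0.0335 with both. As FPKM + 1 it fell 2.01-fold with GSK805 (limma adjusted p = 3.40e-04) and, unlike Ccl20, did not pass with ILA (ratio 1.15, limma adjusted p = 0.195). Mdm1, 35945 bp from Il22, passed in none of the 6 pairwise comparisons, and Pkhd1, Krtap28-13 and Gm32717 reached no more than 0.0898 FPKM. Cetn4, 75113 bp from Il21, was 1.3-fold higher with ILA (limma adjusted p = 0.0148).

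For each of the 5 genes, the 3 genes with the most similar profile were sought among 7143 by Pearson correlation of log2(FPKM + 1) over the 12 libraries, which mostly reflects the 4 group means. Il17a and Il17f found each other (r = 0.992), and both had Atf3, a stress-induced transcription factor, and Bcl2a1d, a survival gene of the BCL2 family, among their 3 (r = 0.984 to 0.996). Bcl2a1d went from 62.9 ± 3.87 FPKM with vehicle to 37.9 ± 1.68 with ILA, 37.4 ± 1.27 with GSK805 and 22.9 ± 1.01 with both (n = 3), and it has close copies among which reads may be split. Il21 was closest to Smim3 and Spty2d1 (r = 0.991 and 0.99). Smim3 stood at 34.2 ± 2, 22 ± 1.11, 25.7 ± 0.826 and 20 ± 0.524 FPKM in the order vehicle, ILA, GSK805, both. Ccl20 was closest to the cytokine gene Lif, to Ermn and to the small GTPase gene Gem (r = 0.981, 0.979 and 0.962). Lif stood at 46 ± 6.09, 35.9 ± 4.25, 17.8 ± 0.806 and 16.4 ± 1.48 FPKM in the same order of groups. Il22 had the weakest matches, P2ry10, Prkar1a and Zeb1 (r = 0.955, 0.949 and 0.946). P2ry10, a lysophospholipid receptor gene, stood at 23.8 ± 1.53 FPKM with vehicle, 33.3 ± 0.968 with ILA, 17.5 ± 1.19 with GSK805 and 18.8 ± 0.933 with both.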

How the data were processed

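The authors deposited 1 file of FPKM values per library. The submitters' processing notes name FastQC 0.11.2, Bowtie and the build mm10. The counting program, annotation and use of strand were not given in the sources used here. With GENCODE vM21 exon lengths, 96.6% to 98.6% of a library's values above 0 lay within 0.1 of a whole number of reads, and 1 read in 1 kb was worth 0.0426 to 0.056 FPKM.

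The 5 genes and the gene lists were chosen with earlier results of these data known. Symbols came from a table that matched 28807 of 29522 identifiers. Group means of log2(FPKM + 1) over all 12 libraries were estimated with limma 3.58.1 (trend, robust) in R 4.3.3 for the 13511 genes whose mean reached 1 FPKM in some group. The procedure was tested on simulated data. Benjamini-Hochberg adjustment ran over all of these genes. Ratios of Il17a to Il17f were compared by exact permutation with scipy 1.17.1. Sequences are from RefSeq, where all 5 genes had an entry.

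Named besides the 5 genes were a fixed set of receptors, upstream genes and cytokines, and the 3 best correlated genes among those averaging 5 FPKM or more. Some named genes are not reported here. Nearest protein-coding neighbours were added after the values were seen. The tests were repeated without the filter or with one at 5 FPKM, with median centring or quantile normalization, with a pseudocount of 0.1, without limma's trend and robust options, with the replicate number as a block, on the compared groups alone, and without each library; the ratio was also repeated with 1 added to both values; voom on recovered reads was added after seeing the data.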

Additional observations from a re-analysis of the deposited data

Results flagged for a closer look

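The effect of ILA on a gene differed with and without GSK805 for 2 of the 5 genes, by the interaction term of the limma fit. For Il17a the log2 effect of ILA was -1.42 with GSK805 and -2.23 without it, and the difference was 0.81 (SE 0.17, limma adjusted p = 0.0117). The adjusted p ran from 5.82e-05 to 0.0323 over the alternatives. For Il21 the effects were -1.09 and -1.8, and the difference was 0.71 (SE 0.11, limma adjusted p = 0.00328), with adjusted p from 1.33e-06 to 0.0128 over the alternatives.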

How the results depend on the processing

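Of 729 values of the 5 genes under alternatives, 718 kept the direction and the side of the threshold, and 30 of the 35 gene-wise comparisons did so under every alternative run. The Ccl20 fall with ILA lost its call with no filter (log2 difference -0.56, limma adjusted p = 0.0535) and without vehicle replicate 2 or 3 or ILA replicate 3, and ranged from -0.659 to -0.475 with a library left out. Its difference between GSK805+ILA and GSK805 ranged from -0.625 to -0.164 and passed only without GSK805+ILA replicate 3. The Il17f interaction passed with voom (0.22, limma adjusted p = 0.0375) and without vehicle replicate 1 (limma adjusted p = 0.0492), and ranged from 0.169 to 0.295 with a library left out. Values near 0 that had not passed turned sign: Il17f between ILA and GSK805 was -0.003 with median centring and -0.001 to 0.091 with a library left out, and the Ccl20 interaction ranged from -0.061 (without GSK805+ILA replicate 3) to 0.399. The interaction called 1871 genes, 1067 with no filter and 1201 to 1974 with a library left out (1232 without vehicle replicate 3, 1206 without GSK805 replicate 1, 1201 without GSK805+ILA replicate 3); GSK805+ILA against ILA called 2507, and 1604 to 2580 with a library left out, the lowest without GSK805+ILA replicate 3. The causes were not tested. Ratios of Il17a to Il17f moved by less than the spread between replicates. With the replicate number as a block the calls went from 1871 to 1975 for the interaction and from 3076 to 3081 for GSK805. The Il17f interaction then passed (0.22, limma adjusted p = 0.0392). Deviations of same-numbered libraries from their group means were at most weakly correlated (r from -0.082 to 0.078 over 18 pairs). Between ILA and GSK805 these r were 0.053, 0.05 and 0.078, and between GSK805 and GSK805+ILA -0.017, -0.082 and 0.031. A library correlated best with its own number in 16 of 36 cases. These values cannot settle whether the number marks a pairing. Depth limits Il22, with 6 to 26 reads in the libraries that had GSK805.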
